A study of Mus musculus with 18 samples.

Results

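Transcripts of 10 genes that mark pericytes, vascular smooth muscle cells and mesenchymal cells were followed in mouse endothelial libraries and in cultured EO771 tumour cells. The genes were Pdgfrb, Pdgfra, Notch3, Cspg4, Mcam, Rgs5, Acta2, Tagln, Myh11 and Des, read by Ensembl identifier among 55401 lines of the endothelial table and by symbol among 22544 lines of the EO771 table. All 10 had a line in both tables. All 10 passed the filter of a mean of at least 10 in the endothelial table, where 18511 genes passed, and 2 passed it in the EO771 table, where 11585 passed. The members were chosen by name as mural and mesenchymal genes, with their measured levels in normal fat pad endothelium already known, so for them every comparison against those libraries is a description, without a test. The other gene lists below were also chosen with earlier results of these data known. Their calls against normal fat pad endothelium are therefore not independent of the member values.

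The endothelial cells came from female wild-type C57BL/6 mice and were sorted as CD45- CD31high cells, with peripheral node addressin (PNAd) separating high endothelial cells (HECs, PNAd+) from other blood vessel endothelial cells (BECs, PNAd-). The group BEC normal was taken from fat pads and HEC normal from lymph nodes. BEC tumour was taken from primary tumours of EO771 breast cancer cells, and HEC tumour from tissue that the labels call lymph node metastases. Each group had 3 libraries. The EO771 line, a mouse mammary carcinoma line, was cultured with vehicle or with 12-HETE, a lipid made by 12-lipoxygenase, with 3 libraries in each group. The tissues were dissociated with different enzymes, so in any comparison across tissues the dissociation and the tissue cannot be told apart. The study describes the replicates of both experiments as independent experiments, and whether animals were pooled is not given in the sources used here.

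Pericytes and vascular smooth muscle cells, together called mural cells, wrap the outside of blood vessels. Endothelial PDGF-B acts on the receptor PDGFRβ of pericytes and recruits them to the vessel, and the Notch ligands JAG1 and DLL4 on endothelium signal to NOTCH3 on mural cells. Smooth muscle cells contract through smooth muscle actin and myosin with their regulators, and none of the contractile genes is used by one cell type alone. Because mural cells lie against endothelium, their RNA can enter an endothelial sort, and in bulk libraries a larger number of such cells and more RNA per cell cannot be told apart.

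Library totals were 56.4 to 79.4 M in the endothelial table and 17.3 to 18.6 M in the EO771 table. Low endothelial values rose in steps of about 3.74, so a value of 1 was not 1 fragment. Means at or under 3 steps, between 9.9 and 12.1 normalised counts by group, were therefore treated as under the floor, and the EO771 floor was 3 counts. Levels are DESeq2 normalised counts, with means ± SD over 3 libraries. The endothelial genes Pecam1 and Cdh5 were high in all 4 endothelial groups, with means of 41041 to 57960 for Pecam1, and the HEC genes Glycam1 and Chst4 were at 0 in all 6 BEC libraries. Other genes of the HEC list did not separate the groups. Gcnt1 averaged 291 and 320 in HEC normal and HEC tumour and 373 and 490 in BEC normal and BEC tumour. Enpp2 overlapped between HEC and BEC libraries, and Madcam1 was under the floor in both HEC groups. Leukocyte markers, 8 genes with Ptprc and Lyz2 among them, summed to 628 to 1055 library-scaled counts (CPM) in BEC tumour and to 4.09 to 11.8 CPM in the other endothelial libraries. HEC normal replicate 2 held Chst4 at 4.07 and HEC tumour replicate 3 held Fut7 at 14255, each far below the other libraries of its group. Results with and without these libraries are given below where a call changed.

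The contractile gene Acta2 led the set. Acta2 encodes smooth muscle alpha-actin, and its identifier is ENSMUSG00000035783, at chr19:34241090-34255590 on the minus strand of GRCm38. The levels of Acta2 in BEC normal were 42470, 43370 and 43243. BEC tumour held 2334, 3437 and 4039, HEC normal held 190, 235 and 182, and HEC tumour held 15, 21.7 and 6.64. The 4 groups did not overlap, in the order BEC normal, BEC tumour, HEC normal, HEC tumour. The 3 BEC normal libraries were very even, with a coefficient of variation of 1.13%, against 26.4% in BEC tumour. The Acta2 difference was −3.72 ± 0.19 (log2 fold change ± SE) for BEC tumour against BEC normal and −7.73 ± 0.20 for HEC normal against BEC normal. Divided by exon length, the Acta2 level in BEC normal was 211% ± 10.1 (SD, n = 3) of the Pecam1 level, and it was 22.6% ± 5.84 of Pecam1 in BEC tumour. In the HEC groups the Acta2 level per kb was 1.10% ± 0.128 of Pecam1 in HEC normal and 0.0849% ± 0.0450 in HEC tumour. The closest actin copies were far lower in BEC normal, where Actg2 averaged 55.9 ± 23.9 and Acta1 lay between 8.13 and 20.3. Acta1 lay between 344 and 611 in BEC tumour, and how reads that match several actins were counted was not stated, so the Acta2 values there are less certain.

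The region before the start of Acta2 is shown because serum response factor, through CArG boxes, is the textbook regulator of smooth muscle contractile genes. A CArG box is an A/T-rich core between CC and GG, and a match is a description of letters, not a bound site. In RefSeq promoters of 300 bases on GRCm38.p6, which held 7 of the 10 members, no member had an exact CArG box, and 1.63% of 32851 promoters had one. With 1 C or G allowed in the core, 1 of the 7 members, Acta2, held a match, beside 9.98% of all promoters. The matches are in capitals in the bases before the RefSeq start, itself inside the gene as GENCODE gives it, and these bases lie at chr19:34255374-34255623 on the minus strand and are written 5′ to 3′ along the gene. They begin 84 and 34 bases upstream of the start.
Acta2: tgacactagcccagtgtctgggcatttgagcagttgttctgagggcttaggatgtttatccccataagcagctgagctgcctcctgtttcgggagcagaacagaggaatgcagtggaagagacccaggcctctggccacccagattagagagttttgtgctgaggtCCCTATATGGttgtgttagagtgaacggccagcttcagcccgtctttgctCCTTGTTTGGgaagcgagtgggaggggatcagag
Myl9, a regulatory myosin light chain gene of the smooth muscle list, is shown beside it because it held an exact CArG box, which begins 161 bases upstream of its start. The box is in capitals in the bases at chr2:156775293-156775322 on the plus strand.
Myl9: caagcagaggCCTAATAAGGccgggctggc
Of the smooth muscle contraction genes outside the member list that had a promoter in the table, 1 of 12 held such a box.

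**Figure D1:**
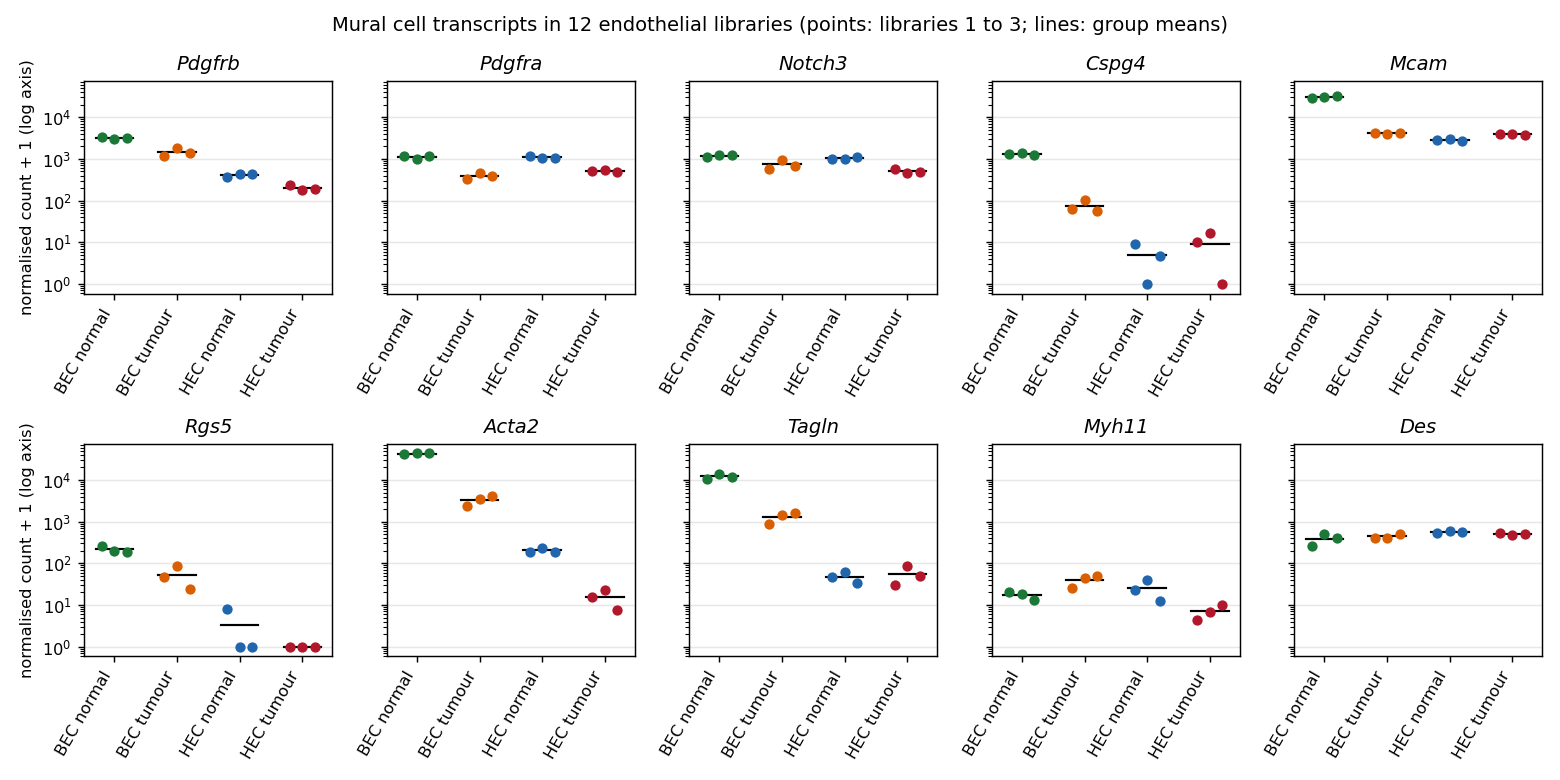
Normalised counts of the 10 members in the 12 endothelial libraries, drawn as count + 1 on a log axis, with a point for each library and a line for each group mean. Acta2 has a mean of 43028 in BEC normal and lies at 6.64 to 21.7 in HEC tumour, while Des lies between 260 and 582 everywhere.

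Tagln encodes transgelin, an actin-binding protein of smooth muscle, and lies at chr9:45929619-45936058. Its levels were 10818, 13547 and 12015 in BEC normal and 882, 1452 and 1618 in BEC tumour. In HEC normal they were 45.6, 62.1 and 33.4, and in HEC tumour 28.9, 86.8 and 49.8. The BEC groups stood apart from each other and above all HEC libraries, and the HEC groups overlapped. Tagln differed by −3.20 ± 0.30 on the log2 scale for BEC tumour against BEC normal and by −8.01 ± 0.33 for HEC normal against BEC normal. Of its exon bases, 67.9% are shared with Pcsk7 and Gm48529 on the other strand, and the sources do not say whether counting used strand, so its values are uncertain.

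Myh11, the smooth muscle myosin heavy chain at chr16:14194535-14291372, did not share this pattern. BEC normal held 19.4, 17.7 and 12.2 and BEC tumour 24.1, 42.3 and 49.7. HEC normal held 21.3, 39.7 and 11.5 and HEC tumour 3.46, 5.92 and 8.85. BEC normal lay below BEC tumour in all libraries, by a fitted 1.24 ± 0.63, and the mean of HEC tumour was under the floor. Per kb, Myh11 in BEC normal was 0.0232% ± 0.00527 of Pecam1. Myh11 was close to the floor in the same libraries in which Acta2 was above Pecam1 per kb.

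Des encodes desmin, an intermediate filament of muscle that pericytes also carry, and lies at chr1:75360329-75368579. Its levels were 260, 499 and 414 in BEC normal and 408, 415 and 515 in BEC tumour. In HEC normal they were 547, 582 and 548, and in HEC tumour 536, 488 and 497. The range over all 12 libraries was narrow beside that of the other members, and BEC normal overlapped BEC tumour. Striated muscle markers summed to 16.2 to 23.6 CPM in BEC tumour and to at most 4.08 CPM elsewhere, and their part in the Des values was not tested.

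The receptors formed a milder pattern. Pdgfrb (ENSMUSG00000024620) encodes the receptor by which pericytes sense PDGF-B. It had levels of 3400, 2988 and 3108 in BEC normal and 1154, 1809 and 1383 in BEC tumour. In HEC normal its levels were 361, 433 and 429, and in HEC tumour 235, 179 and 191. No 2 groups overlapped. The log2 differences of Pdgfrb were −1.13 ± 0.17 for BEC tumour against BEC normal and −2.96 ± 0.18 for HEC normal against BEC normal. Per kb, the Pdgfrb level was 6.2% ± 0.211 of Pecam1 in BEC normal and 0.474% ± 0.0671 in HEC tumour.

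Pdgfra, the PDGF receptor of fibroblasts and other mesenchymal cells at chr5:75152292-75198215, differed more between normal and tumour groups than between HECs and BECs. Between the BEC groups, tumour, tissue and dissociation cannot be told apart. In the normal tissues its levels were 1198, 972 and 1200 in BEC normal and 1155, 1045 and 1046 in HEC normal. With tumour they were 332, 464 and 384 in BEC tumour and 499, 535 and 476 in HEC tumour. The normal groups overlapped and all 6 tumour libraries lay below them. The Pdgfra difference for BEC tumour against BEC normal was −1.51 ± 0.15, and for HEC normal against BEC normal it was −0.05 ± 0.14.

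Notch3, a Notch receptor typical of arterial mural cells, at chr17:32120820-32166852, had levels of 1134, 1212 and 1250 in BEC normal and 582, 967 and 692 in BEC tumour. In HEC normal its levels were 1021, 1017 and 1131, and in HEC tumour 588, 465 and 481. Its normal groups were again close to each other, and the tumour groups overlapped. Heyl, a target of Notch3 in mural cells, was at 0 in all 3 BEC normal libraries, and its group means elsewhere were at most 9.15.

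Among the surface proteins, Mcam encodes CD146, an adhesion molecule of both endothelial and mural cells, and lies at chr9:44134469-44142727. Its levels were 28442, 30748 and 31499 in BEC normal and 4142, 4036 and 4298 in BEC tumour. In HEC normal they were 2818, 2970 and 2742, and in HEC tumour 3942, 4014 and 3658. All groups but BEC normal lay within a narrow band, and BEC normal stood above them, with −2.86 ± 0.06 for BEC tumour against BEC normal and −3.41 ± 0.06 for HEC normal against BEC normal. Per kb, Mcam was 97.1% ± 7.83 of Pecam1 in BEC normal and 10.2% to 18.8% of it as the means of the other groups. The bases before the RefSeq start of Mcam, which lies inside the gene as GENCODE gives it, are shown as a contrast to those of Acta2 and lie at chr9:44134408-44134657 on the plus strand. In capitals are matches on either strand to the GC box GGGCGG, of which there were 5 in the window. At least 1 such match was found in 35.7% of all promoters.
Mcam: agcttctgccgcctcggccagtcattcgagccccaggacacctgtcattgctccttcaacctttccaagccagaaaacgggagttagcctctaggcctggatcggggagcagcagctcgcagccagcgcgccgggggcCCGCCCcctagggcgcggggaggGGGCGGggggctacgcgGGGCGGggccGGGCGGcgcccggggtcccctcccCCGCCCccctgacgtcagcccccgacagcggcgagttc

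Cspg4 encodes NG2, the surface proteoglycan by which pericytes are often stained, and lies at chr9:56865033-56899870. Its levels were 1280, 1353 and 1255 in BEC normal and 62.1, 101 and 54.1 in BEC tumour. In HEC normal they were 8.11, 0 and 3.82, and in HEC tumour 9.24, 15.8 and 0, both under the floor as means. Cspg4 was at least 116-fold higher in BEC normal than in HEC normal, and differed by −4.16 ± 0.53 on the log2 scale for BEC tumour against BEC normal. Rgs5, a regulator of G protein signalling that is among the most used pericyte markers, lies at chr1:169655501-169695813. BEC normal held 262, 198 and 188 and BEC tumour 45.5, 84.6 and 23.5. HEC normal held 7.10, 0 and 0, and all HEC tumour libraries were at 0. Rgs5 was at least 19.4-fold higher in BEC normal than in HEC normal. Its level per kb in BEC normal was 0.509% ± 0.0807 of Pecam1.

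As a description, 6 of 10 members were lower by more than 1 on the log2 scale in HEC normal than in BEC normal, where 17.7% of all genes tested were. In BEC tumour against BEC normal, 7 of 10 were lower by that much, beside 14.0% of all genes, and 1, Myh11, was higher, beside 16.5%. The median log2 difference of the members was −3.18 and −1.80 in these comparisons, and that of all genes was 0.00 and 0.01. Both comparisons share the BEC normal libraries, and the members were chosen with them in view.

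The first question that could be tested was whether these transcripts changed in HECs with tumour. A gene was called at an adjusted p under 0.05 with a log2 fold change over 1 in size, and 3.21% of all genes were called lower in HEC tumour against HEC normal. Of the 10 members, 5 were called lower and 0 higher by DESeq2 and by edgeR alike, where 4.58% of all genes were called higher, and 1 member, Mcam, was higher at an unadjusted p under 0.05. The median log2 fold change of the members was −1.03, beside 0.02 for all genes. Without HEC tumour replicate 2 the number called lower was 2, Acta2 and Pdgfra. It was 4 without HEC tumour replicate 3, which was low in Fut7. It was also 4 without HEC normal replicate 2, which lacked Chst4, but there Pdgfrb and Myh11 lost their calls. Rgs5, under the floor in both HEC groups, was called lower in that fit instead. Acta2 fell by the most, with a log2 fold change of −3.79 ± 0.30 (DESeq2 adjusted p = 4.95e-34) and all HEC tumour libraries below all HEC normal libraries. The HEC tumour mean of Acta2, 14.5, lay just above the floor of 12.1, and replicate 3, at 6.64, lay under it. The size of the fall is therefore uncertain. Pdgfra fell by 1.10 ± 0.15 on the log2 scale (DESeq2 adjusted p = 1.56e-12). The Acta2 and Pdgfra calls held under each alternative, with log2 fold changes of −4.23 to −3.45 and −1.15 to −1.06.

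The 3 other calls lay close to the thresholds. Pdgfrb fell by 1.02 ± 0.19 (adjusted p = 4.77e-07), and without HEC normal replicate 2 or 3 or HEC tumour replicate 2 or 3 its log2 fold change was −0.93 to −0.98, short of a size of 1. Notch3 fell by 1.05 ± 0.18 (adjusted p = 1.56e-07), and was −1.0 without HEC normal replicate 3 and −0.98 without HEC tumour replicate 2, neither of them called. For Myh11 the fitted value was −1.98 ± 0.70 (adjusted p = 0.0162), and as HEC tumour was under the floor the fall was at least 2.0-fold. The adjusted p of Myh11 was 0.136 without HEC normal replicate 2, 0.077 without HEC tumour replicate 1 and 0.0549 without HEC tumour replicate 2. With values divided by the step Myh11 missed the filter and had no test. All 3 genes were nevertheless lower in every HEC tumour library than in every HEC normal library, as were Acta2, Pdgfra and Des, an ordering that 24.1% of all genes showed. The reverse ordering, shown by 24.7% of all genes, was found for Mcam.

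The other 5 members were not called. For Mcam the log2 fold change was 0.45 ± 0.07 (adjusted p = 1.62e-10), a 1.36-fold difference that fell short of the fold required. Tagln differed by 0.24 ± 0.35 (adjusted p = 0.646) and Des by −0.14 ± 0.22 (adjusted p = 0.68). Cspg4 and Rgs5 were under the floor in both HEC groups and passed the filter through the BEC libraries, so no fold is given. Without HEC tumour replicate 3 the Cspg4 difference was called, with an adjusted p of 0.0219, and the adjusted p of Rgs5 was 0.0552 with all libraries and 0.0229 and 0.0214 without HEC normal replicate 2 or 3.

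**Figure D2:**
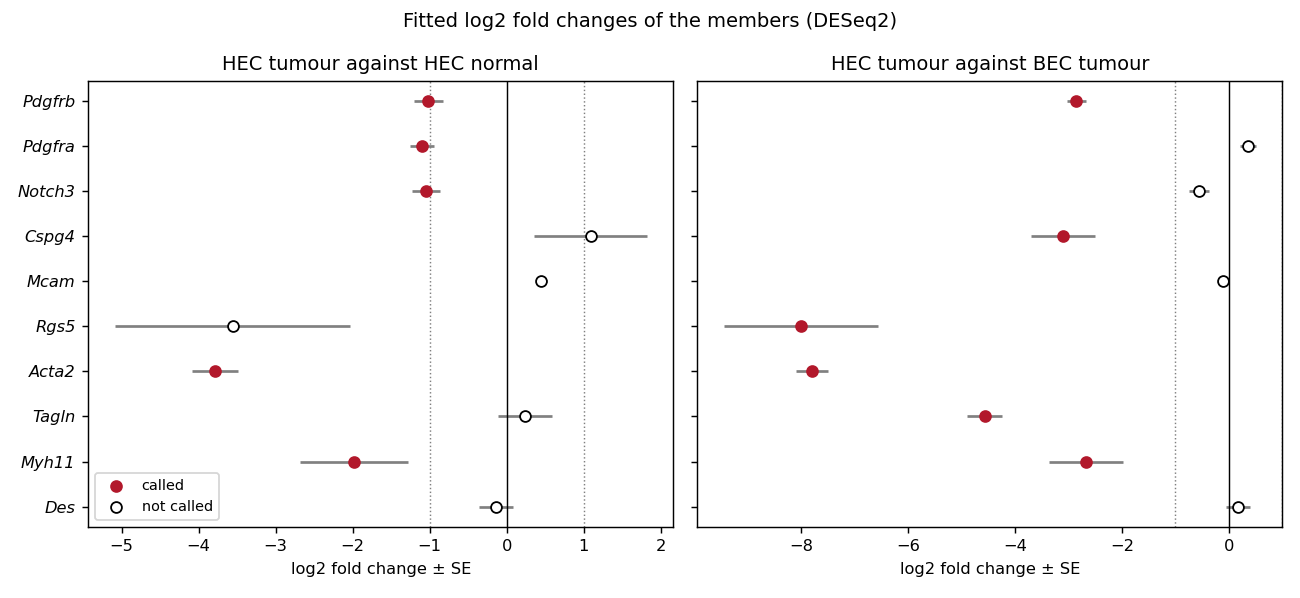
Fitted log2 fold changes of the 10 members ± SE for HEC tumour against HEC normal (left) and against BEC tumour (right), with filled points for called genes and dotted lines at a size of 1. On the left 5 members are called lower and on the right 6 are, and Acta2 lies at −3.79 and −7.80.

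Next, HEC tumour was set against BEC tumour, a comparison that holds no BEC normal library. Here 10.7% of all genes were called lower in HEC tumour, and 6 of 10 members were: Pdgfrb, Rgs5, Cspg4, Acta2, Tagln and Myh11. None of the 10 was called higher by DESeq2 or edgeR, beside 11.2% of all genes, and 1, Pdgfra, was higher at an unadjusted p under 0.05. The members' median log2 fold change was −2.76, beside 0.01. Acta2 fell by 7.80 ± 0.30 (adjusted p = 3.39e-150), Tagln by 4.57 ± 0.32 (adjusted p = 1.74e-43) and Pdgfrb by 2.85 ± 0.18 (adjusted p = 3.72e-53). The size for Acta2 rests on a HEC tumour mean just above the floor. With HEC tumour under the floor, the levels in BEC tumour were at least 4.23-fold higher for Rgs5 (adjusted p = 1.15e-07), at least 5.97-fold higher for Cspg4 (adjusted p = 1.28e-06) and at least 3.19-fold higher for Myh11 (adjusted p = 0.000353).

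Groups did not overlap for 7 members that were lower in HEC tumour, the called 6 and Mcam, beside 31.8% of all genes, and for Pdgfra, which was higher, beside 30.9%. The remaining members lay close together in the 2 tumour groups. Mcam differed by −0.10 ± 0.06 (adjusted p = 0.172) and Des by 0.18 ± 0.22 (adjusted p = 0.502). Notch3 was at −0.55 ± 0.19 (adjusted p = 0.007) and Pdgfra at 0.36 ± 0.15 (adjusted p = 0.0349), both short of the fold required. Dissociation, tissue and vessel type all differ between these groups and cannot be told apart.

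Leukocyte markers were raised in the same BEC tumour libraries, where Lyz2 averaged 51966 ± 12236, and the part of such cells in these results was not tested. In HEC tumour against BEC tumour 10.7% of all genes were called lower and 11.2% higher. Of 6 epithelial markers 4, Epcam, Krt8, Krt18 and Cdh1, were called lower there and 1, Krt19, higher. They summed to 14.3, 18.1 and 85.8 CPM in BEC tumour replicates 1, 2 and 3 and to 27.9 to 34.2 CPM in the HEC groups, where Krt19 averaged 1865 ± 87.1 and 2021 ± 80.7 and Epcam was under the floor. In BEC tumour the basal keratins Krt5 and Krt14 averaged 221 ± 11.3 and 239 ± 129. BEC tumour replicate 1 was lowest for 7 of the 10 members and highest for none, while replicate 2 was highest for Pdgfrb, Rgs5, Cspg4, Notch3 and Pdgfra. Replicate 3 was highest for Acta2, Tagln, Myh11, Des and Mcam. The 6 members called in HEC tumour against BEC tumour numbered 6 after leaving out any of the 6 libraries.

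To set these levels beside other pericyte markers, 12 pericyte genes outside the member list were read. In BEC normal 7 of the 12 were at or under the floor, and Abcc9 and Kcnj8, the subunits of the pericyte potassium channel, Vtn and Heyl were at 0 in all 3 libraries. Higd1b averaged 2.19 ± 1.91 there. Above the floor were Anpep, an aminopeptidase shared with many stromal cells, at 1701 ± 221, Steap4 at 207 ± 60.3, Foxs1 at 81.4 ± 27.3, Cox4i2 at 45.8 ± 21.2 and Ndufa4l2 at 19.0 ± 14.0. The pericyte genes summed to 27.4 to 33.0 CPM in BEC normal and 18.0 to 26.7 in BEC tumour, and among HECs to 9.43 to 11.7 in normal and 9.98 to 11.5 in tumour libraries. The members summed to 1309 to 1361 CPM in BEC normal and 149 to 194 CPM in BEC tumour. Most of the BEC normal sum was Acta2 at 621 to 622 CPM, Mcam at 417 to 452 and Tagln at 159 to 194. No other member was above 49.8 CPM there. These sums are not divided by exon length, so sums of different lists are not compared as levels.

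Abcc9 and Kcnj8 were held almost entirely by 1 library. Their levels in BEC tumour replicate 2 were 57.5 and 65.1, and at most 9.16 and 6.97 in any other endothelial library. That library was also the highest of its group for Pdgfrb, Rgs5, Cspg4 and Notch3. Vtn was higher in HECs, with 82.6 ± 8.73 in HEC normal and 156 ± 82.1 in HEC tumour. Of the 12 genes, 6 passed the filter. In HEC tumour against BEC tumour 11.2% of all genes were called higher and 10.7% lower. Vtn was called higher there and Steap4 and Anpep lower, with −2.44 ± 0.27 for Steap4 (adjusted p = 6.14e-18) and −1.39 ± 0.26 for Anpep (adjusted p = 2.46e-07). In HEC tumour against HEC normal 1 was called, Cox4i2, which was higher, beside 4.58% of all genes. Its levels were 3.46, 28.6 and 4.43 in HEC tumour, with a mean of 1.02 in HEC normal. It was 1 library that carried the HEC tumour mean, and the number called was 0 without HEC tumour replicate 2, without HEC normal replicate 1 or 3, or with values divided by the step. In BEC tumour against BEC normal 2 were called higher, beside 12.4% of all genes. They were Steap4 at 1.08 ± 0.26 (adjusted p = 0.000126) and Vtn, under the floor in both groups. The number was 1 without BEC tumour replicate 2. Steap4, a metalloreductase, thus went the other way from Acta2 and Rgs5 between the BEC groups.

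The smooth muscle contraction list, 14 further genes, was uneven in BEC normal. Tpm2, a tropomyosin, stood at 12588 ± 279, Mylk, the kinase of myosin light chain, at 4076 ± 133, Myl9 at 2990 ± 80.4 and Cnn1, calponin, at 1511 ± 158. In the same libraries Pln, phospholamban, was at 0, and Casq2 and Myocd, the coactivator of the smooth muscle program, were under the floor at 2.74 and 7.02. Tpm2, Myl9 and Cnn1 were 2023 ± 426, 181 ± 30.0 and 138 ± 72.4 in BEC tumour. In HEC normal they were 76.1 ± 18.7, 7.38 ± 5.95 and 27.5 ± 7.07, with Myl9 under the floor.

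Of the 11 genes of this list that passed the filter, 6 were called lower in HEC normal against BEC normal, where 15.1% of all genes were. In BEC tumour against BEC normal 4 were called lower, beside 10.8% of all genes. In HEC tumour against HEC normal 4 were called lower, beside 3.21% of all genes, but Myl9 and Ppp1r14a were under the floor in both groups and passed the filter through the BEC libraries. The others were Tpm2, with a log2 fold change of −1.39 ± 0.34 (adjusted p = 0.000296), and Itga8, which was at 0 in every HEC tumour library. The number called was 2 with only the 2 groups fitted or with values divided by the step. In HEC tumour against BEC tumour 5 were called lower by DESeq2, beside 10.7% of all genes, and 4 by edgeR. The 5 were Cnn1, Myl9, Tpm2, Itga8 and Ppp1r14a. Ppp1r14a was under the floor in both of these groups and passed the filter through BEC normal, where it averaged 188 ± 42.1. In the same comparison 1, Synpo2, was called higher, beside 11.2%. Smtn went the other way from Acta2, with 7911 ± 68.1 in BEC normal and 14861 ± 630 in BEC tumour.

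**Figure D3:**
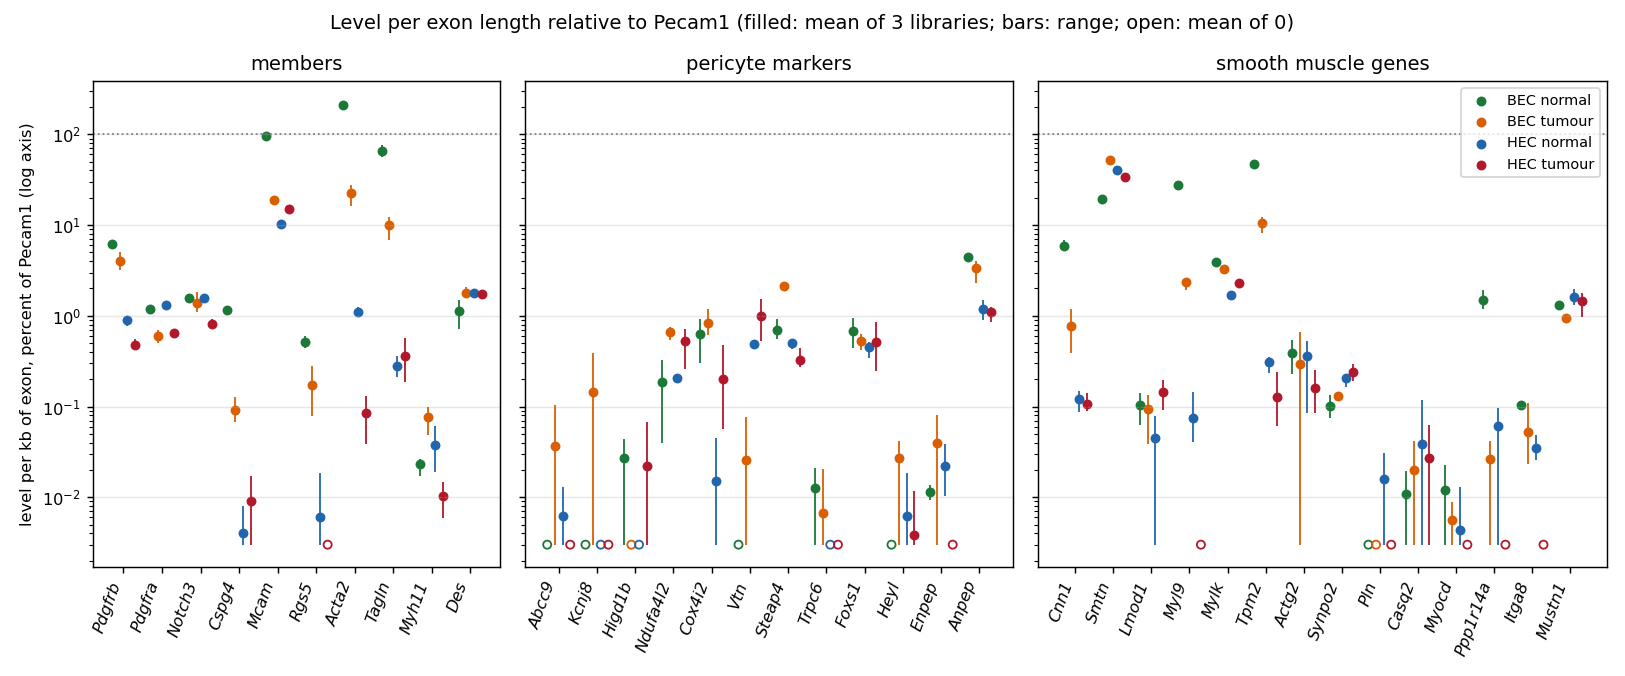
Level per kb of exon as a percentage of the Pecam1 level, on a log axis, for the members, 12 pericyte markers and 14 smooth muscle genes in the 4 endothelial groups (points, means of 3 libraries; bars, ranges; open points, a mean of 0). In BEC normal Acta2 lies at 211%, Mcam at 97.1% and Tpm2 at 46.6%, while Abcc9, Kcnj8, Vtn, Heyl and Pln are at 0 and Myh11 is at 0.0232%.

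The mutual proportions of the members changed between groups. Per kb, the median ratio of Acta2 to Tagln was 3.26 in BEC normal, 2.26 in BEC tumour and 3.76 in HEC normal, and it was 0.226 in HEC tumour. Acta2 to Myl9 was 7.65 in BEC normal and 9.47 in BEC tumour, and Acta2 to Cnn1 was 35.5 and 33.3. The Cnn1 ratio overlapped between the BEC groups, and the ratios to Myl9 and Tagln differed by less than the levels of these genes did. Acta2 to Myh11 was 8502 in BEC normal, 281 in BEC tumour and 30.8 in HEC normal. Acta2 to Pdgfrb was 34.7 and 5.05 in normal and tumour BECs and 1.31 and 0.159 in normal and tumour HECs, and the ranges over libraries did not overlap between any of these groups. In HEC tumour the Acta2 ratios rest on a mean Acta2 level just above the floor. The ratio of Pdgfrb to Pdgfra was 5.19 and 6.60 in the BEC groups and 0.750 and 0.736 in the HEC groups. The receptors, Myh11 and the contractile genes therefore did not stay in 1 proportion from group to group.

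**Figure D4:**
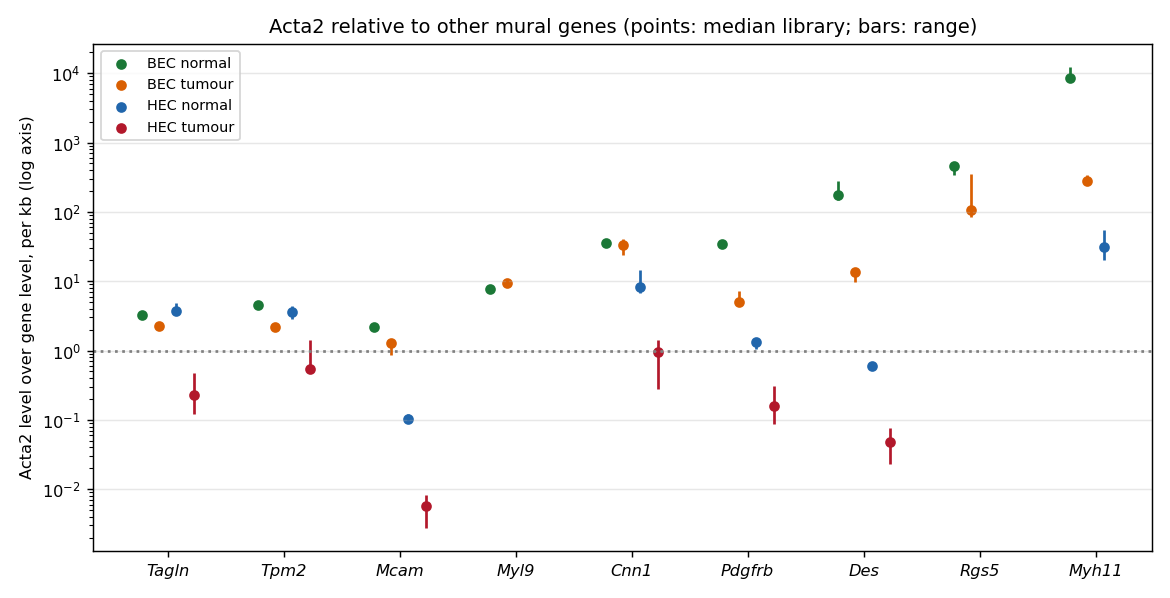
Level of Acta2 divided by the level of 9 other genes, per kb of exon and on a log axis, with points for the median library and bars for the range of 3 libraries, and no point where the other gene was under the floor. The ratio to Cnn1 is 35.5 and 33.3 in BEC normal and BEC tumour, while the ratio to Myh11 is 8502 and 281.

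Across the 12 endothelial libraries, Pearson correlations of log2 levels were described without a test, since libraries of 1 group share tissue and dissociation. Pdgfrb and Acta2 had r = 0.987, Pdgfrb and Rgs5 0.954, and Acta2 and Tagln 0.940. Notch3 and Pdgfra had r = 0.800, while Pdgfra and Pdgfrb had 0.241. Des ran against most members, with r of −0.583 to −0.682 to Pdgfrb, Rgs5, Cspg4, Acta2, Tagln and Mcam. The genes most like Acta2 among all those tested were Calr, Sdf4 and Bmpr1a (r = 0.995, 0.994 and 0.993). Those most like Tagln were Ripk3, Serpinf1 and Cdkn2a, and those most like Mcam were Poglut1, Sgk1 and Tgfb1i1. Pdgfra was most like Oas1g, Tgtp1 and Oas1a (r = 0.975, 0.974 and 0.973), all 3 known as interferon-induced genes. Notch3 was most like Fam102a, Shisa5 and Ddx24 (r = 0.957, 0.955 and 0.954), Rgs5 most like Tmem121, Zfp286 and Vegfc, Cspg4 most like Slc4a4, Gmpr and Foxp2, and Pdgfrb most like Nacc1, Ctnnd1 and Sgce. The best values for Myh11 and Des were 0.968 for Ndufaf7 and 0.946 for Crct1.

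Endothelial ligands for mural cells were read from a list of 10 genes. Pdgfb, the ligand of Pdgfrb, averaged 2449 ± 114 in BEC normal and 3231 ± 228 in HEC normal, and with tumour 1288 ± 127 in BECs and 5342 ± 308 in HECs. Pdgfb was thus highest in the group in which Pdgfrb was lowest. In HEC tumour against BEC tumour 5 of the 10 ligands were called higher, beside 11.2% of all genes, and 0 lower by DESeq2 or edgeR, beside 10.7%, with 1 lower at an unadjusted p under 0.05. The called genes were Pdgfb at 2.05 ± 0.09 on the log2 scale (adjusted p = 3.37e-103), Dll4, Hbegf, Edn1 and Angpt2. In HEC normal against BEC normal 3 were called higher, Pdgfa, Edn1 and Angpt2, beside 17.1% of all genes. There 2 were called lower, Jag1 and Dll4, beside 15.1%. In BEC tumour against BEC normal 2 were called higher, Edn1 and Angpt2, beside 12.4% of all genes. There 3 were called lower, Jag1, Dll4 and Tgfb1, beside 10.8%. Dll4 went from 1129 ± 87.5 in BEC normal to 53.0 ± 22.3 in BEC tumour. None of the 10 was called by DESeq2 or edgeR in HEC tumour against HEC normal, where 8 passed at an unadjusted p under 0.05 and the adjusted p was under 0.05 for Pdgfa, Pdgfb, Pdgfc, Jag1, Hbegf, Edn1, Tgfb1 and Angpt2 with log2 fold changes of −0.56 to 0.94.

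Markers of other cell types were read in the same libraries. In BEC normal the fibroblast collagens Col1a1 and Col3a1 averaged 8436 and 4128 and Fbln1 averaged 7252, while Lum and Dpt were at 0. Fibroblast genes summed to 306 to 320 CPM in BEC normal, 41.0 to 69.7 in BEC tumour and 15.8 to 21.1 in the HEC groups. The genes of this list moved both ways in BEC tumour against BEC normal, with a median log2 fold change of 0.64. Of 10 that passed the filter 4 were called lower, Col1a1, Col1a2, Col3a1 and Fbln1, beside 10.8% of all genes. Another 4 were called higher, Dcn, Dpt, Pi16 and Mfap5, beside 12.4%. Dcn averaged 181 ± 52.9 in BEC normal and 481 ± 249 in BEC tumour. Adipocyte genes, 6 in all, were at or under the floor in BEC normal, and the myoepithelial keratins Krt5 and Krt14 were at 0 there. The myoepithelial list summed to 643 to 647 CPM in BEC normal, a list that also holds Acta2, Myh11 and Cnn1. Of the lymph node reticular markers, Ccl19 and Cxcl13 were at 0 in all HEC libraries, and Grem1 and Tnfsf11 were under the floor there. Others of that list were present, with Bst1 at 6304 ± 251 in HEC normal and 6175 ± 424 in HEC tumour. Il7 averaged 469 ± 55.4 and 379 ± 106 in these groups, and Pdpn 221 ± 45.8 and 88.2 ± 37.0. The list summed to 96.3 to 112 CPM in HECs and 99.1 to 114 CPM in BECs. Glial genes summed to at most 1.84 CPM in any endothelial library. The pan-endothelial genes summed to 3519 to 3762 CPM in BEC normal and 2605 to 2872 CPM in the other groups. Among them Cldn5, a tight junction gene, averaged 17771 ± 1864 in BEC normal and at most 74.7 in the other groups.

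In EO771 cells only Pdgfra and Des passed the filter. Pdgfra had levels of 64.3, 82.2 and 80.9 with vehicle and 193, 178 and 161 with 12-HETE. The groups did not overlap, as for 30.3% of all genes in that direction, and the log2 fold change was 1.23 ± 0.20 (adjusted p = 1.53e-08), a 2.34-fold rise, where 2.38% of all genes were called higher. Over the alternatives tried it ran from 1.12 to 1.30 with adjusted p between 1.49e-08 and 0.000664. Des had levels of 26.7, 9.56 and 13.3 with vehicle and 16.4, 10.8 and 19.7 with 12-HETE, with a log2 fold change of −0.08 ± 0.57 (adjusted p = 0.922).

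Mcam was below the filter, with counts of 7.92, 13.4 and 7.16 with vehicle and 0 in all 3 libraries with 12-HETE. It was at least 3.17-fold lower with 12-HETE. The endothelial gene Cdh5 was also at 0 in all 3 libraries with 12-HETE, from a mean of 14.5 with vehicle, at least 4.84-fold lower. Of the 12 pan-endothelial genes 4 passed the filter in EO771. With 12-HETE 2 of these were called lower, beside 7.79% of all genes, and 2 were not called. Whether the Mcam difference is separate from that of other endothelial genes was not tested. Acta2 was at most 4.78 in any EO771 library and Pdgfrb at most 0.984. Pdgfra RNA from tumour cells and from other cells cannot be told apart in BEC tumour. Of the endothelial ligands, 8 passed the filter in EO771 and 4 were called lower with 12-HETE, Pdgfb, Hbegf, Edn1 and Angpt2, beside 7.79% of all genes, and 0 were called higher by DESeq2, by edgeR or at an unadjusted p under 0.05. Pdgfb averaged 1250 ± 66.1 with vehicle and 416 ± 17.6 with 12-HETE, a log2 fold change of −1.59 ± 0.11 (adjusted p = 1.07e-48).

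**Figure D5:**
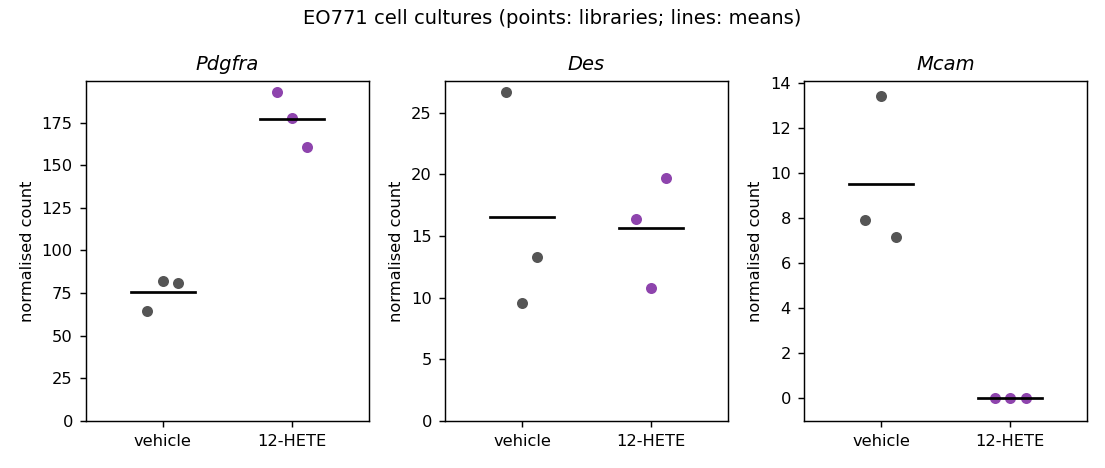
Normalised counts of Pdgfra, Des and Mcam in the 6 EO771 libraries, with a point for each library and a line for each mean. Pdgfra lies at 64.3 to 82.2 with vehicle and 161 to 193 with 12-HETE, Des overlaps, and Mcam is at 0 in all 3 libraries with 12-HETE.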

How the data were processed

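The authors aligned reads of both experiments to the mouse genome GRCm38 with STAR and counted them per gene with featureCounts. Because low values of the endothelial table rise in steps of about 3.74, the values the authors deposited were treated as estimated counts there, while the deposited EO771 values are raw counts. The labels and the methods name different library kits. Strand use in counting was not given in the sources used here. DESeq2 1.42.0 (R 4.3.3) was fitted to genes with a mean of at least 10, once over the 12 endothelial and once over the 6 EO771 libraries. Its Wald tests were two-sided, and p-values were adjusted by Benjamini-Hochberg across every gene tested. Calls needed an adjusted p under 0.05 and a log2 fold change over 1 in size. Exact permutation of 3 against 3 libraries cannot give a p under 0.1. edgeR 4.0.16 served as an alternative. The fits were tested on simulated data. No pair of libraries held identical values.

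The members, lists and comparisons were chosen with earlier results of these data known. The genes named are the members, the listed genes that the counts rest on, and the 3 genes most correlated with a member. Exon lengths and coordinates are from GENCODE on GRCm38, and promoters from RefSeq. Fold bounds cover counting error only, as no molecular identifiers are named and PCR copies are then not independent. Repeated symbols led to 68 EO771 lines being left out. EO771 libraries of the same replicate number deviated together (r = 0.12, 0.17 and 0.33 over genes). The EO771 values given above come from a fit by group alone, which leaves this pairing out. A fit with the replicate number as a block was run as an alternative.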

Additional observations from a re-analysis of the deposited data

Results flagged for a closer look

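Myh11 differed in opposite directions in the 2 vessel types, with a log2 fold change of −1.98 for HEC tumour against HEC normal and 1.24 for BEC tumour against BEC normal. Mcam also did so, with 0.45 in HECs and −2.86 in BECs. The groups did not overlap for either gene. In HECs 24.1% of all genes were lower without overlap and 24.7% higher, and the share in BECs is not given. The BEC groups came from different tissues dissociated with different enzymes, so tumour, tissue and dissociation cannot be told apart there. The difference between the vessel types was not tested for either gene, because the BEC comparison entered the choice of members. The mean of Myh11 in HEC tumour, 6.08, was under the floor, and that in BEC normal, 16.4, was close to its floor of 11.5.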

How the results depend on the processing

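Of the members' tested log2 fold changes under alternatives, 243 stayed on their side of the thresholds, 9 lost a call, 4 gained one and no called value changed sign. Of those described without a test, 237 moved by less than the spread between replicates, and 1, Rgs5 in HEC normal against BEC normal, moved further. All changes of call were in HEC tumour against HEC normal. The sign of uncalled values of Tagln and Des varied. Members called there ran from 2 to 5 lower and 0 to 1 higher when each library was left out. With values divided by the step, Myh11 missed the filter, so 0 members were higher in BEC tumour against BEC normal. Myh11 then also had no test, and so no call, in HEC tumour against HEC normal or against BEC tumour. Without a filter on low counts, 1 member, Mcam, was called lower in EO771. The other lists went through the same alternatives, a choice made after seeing the data. Pericyte genes called in BEC tumour against BEC normal numbered 2, and 1 with edgeR, with the replicate block, with divided values or without BEC tumour replicate 2 (1 to 2 over left-out libraries). In HEC tumour against HEC normal 1 pericyte gene was called, 2 without a filter, 0 with divided values and 0 to 1 over left-out libraries, and smooth muscle genes numbered 4, and 2 with only the 2 groups fitted or with divided values. Ligand genes called there ran from 0 to 1 over left-out libraries. Pericyte genes called in HEC tumour against BEC tumour numbered 3, and 5 with only the 2 groups fitted. Endothelial libraries with the same number correlated at −0.02 to 0.13, so the numbers were not taken as pairs. The replicate block left 5 members called lower in HEC tumour against HEC normal and 6 in HEC tumour against BEC tumour, and changed no member call in EO771. The cause of these changes was not tested. Depth limits Rgs5 and Cspg4 in both HEC groups and Myh11 in HEC tumour, where means lay under the floor. It also limits Acta2 in HEC tumour, where the mean lay just above the floor.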
